A study of Mus musculus with 2 samples.

Results

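The 10 microRNA genes described here are known for their expression in liver, endocrine tissue and epithelia. They were measured in mouse skeletal muscle and taken as markers of other tissues or of carried-over RNA, a premise that was not tested. They are Mir122, Mir192, Mir375, Mir203, Mir205 and the mir-200 family, which comprises Mir200a, Mir200b, Mir429, Mir200c and Mir141. They were chosen by gene name, with earlier results of these data known. All 10 names were found in the GENCODE M21 annotation, and the genes stand among 2202 annotated microRNA genes. The tissue was the gastrocnemius, the large calf muscle, of male adult B6CASTF1/J mice aged 18 to 20 months, a cross of the strains C57BL/6J and CAST/EiJ. The labels gave 1 group of 2 small RNA libraries, replicates 2 and 1, with no treatment, no engineered allele and no second tissue. Both libraries have a biosample entry of their own and a donor entry in common. The labels do not say whether they came from separate animals or from pooled ones, so any difference between them may be technical.

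MicroRNAs are short RNAs cut from hairpin precursors, and they repress messenger RNAs that pair with their seed, the bases near the 5′ end. Mir122 is the dominant microRNA gene of hepatocytes, and its product is also used as a blood marker of liver injury. Mir192 is known from liver, gut and kidney, and Mir375 from pancreatic islets, where it restrains insulin secretion. Mir203 and Mir205 are known from skin and other stratified epithelia, where Mir203 represses the progenitor factor p63. The mir-200 family keeps cells epithelial by repressing the transcription factors Zeb1 and Zeb2. In bulk tissue, fewer cells of a type and less RNA per cell cannot be told apart.

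Mature sequences are shown because they define which members act as a group. RefSeq (build GRCm38.p6) held the hairpins of 9 of the 10 genes, at the same positions as GENCODE M21, and Mir122 was the gene without an entry there. The arm usually most abundant is given for 8 genes, 5′ to 3′, with the seed, bases 2 to 8, in capitals. The deposited values are counts per gene and do not tell the arms apart.
miR-200b-3p: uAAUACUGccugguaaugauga
miR-429-3p: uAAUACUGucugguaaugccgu
miR-200c-3p: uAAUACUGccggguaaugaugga
miR-200a-3p: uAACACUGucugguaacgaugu
miR-141-3p: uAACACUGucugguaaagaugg
miR-203-3p: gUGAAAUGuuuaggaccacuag
miR-205-5p: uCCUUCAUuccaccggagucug
miR-192-5p: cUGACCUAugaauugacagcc

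The mir-200 family falls into 2 seed groups. Mir200b, Mir429 and Mir200c share the seed AAUACUG, and Mir200a and Mir141 share AACACUG. With positions counted from 1 at the 5′ end, miR-200b-3p and miR-200a-3p differ in the seed by U4C alone, and outside it by C9U, U17C and A22U. The seeds cross the genomic clusters. Mir200b, Mir200a and Mir429 lie side by side on chromosome 4, with gaps of 695 bases between Mir200b and Mir200a and 908 bases between Mir200a and Mir429, while Mir200c and Mir141 lie 336 bases apart on chromosome 6. miR-192-5p shares its seed in RefSeq with miR-215-5p only. The seeds of miR-203-3p and miR-205-5p belong to no other mature mouse sequence in that table.

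On mm10 with GENCODE M21, Mir122 (ENSMUSG00000065402.1) spans 65248861 to 65248926 of chromosome 18 on the plus strand, in an exon of the long noncoding RNA gene AC157910.3. Mir192 spans 6264844 to 6264932 of chromosome 19 on the plus strand, outside any other gene. Its neighbour Mir194-2 ends 115 bases before it. Mir375 on chromosome 1 (74900658 to 74900721, minus strand) and Mir203 on chromosome 12 (112130880 to 112130955, plus strand) also overlap no other annotated gene. Mir205 on chromosome 1 (193507463 to 193507530, minus strand) lies in an exon of the noncoding gene 4631405K08Rik. On chromosome 4, minus strand, Mir429 starts at 156053905, Mir200a at 156054896 and Mir200b at 156055681. All 3 lie within introns of the protein-coding gene Ttll10, and Mir429 also overlaps an exon of Gm13648. On chromosome 6, minus strand, Mir141 starts at 124717914 and Mir200c at 124718322, both in an intron of the noncoding gene Gm15884, and Mir141 also overlaps an exon of Gm29008.

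Replicate 2 held 2156222 reads assigned to a microRNA gene and replicate 1 held 4442692, so replicate 1 was 2.06-fold deeper. Levels are counts scaled to a common total of assigned reads (CPM). A gene with 0 counts could still have been at 1.39 CPM in replicate 2 or at 0.675 CPM in replicate 1, and these limits and all intervals cover counting error only. Multimapping reads, 70.2% of the table in replicate 2 and 73.8% in replicate 1, were left out of the gene counts. No member shared a run of 20 bases with another microRNA gene. The longest shared run was 17 bases, between Mir200a and Mir141. The tissue label was checked with 12 striated muscle genes, which together took 6.57% of assigned counts in replicate 2 and 1.64% in replicate 1, with 10 of the 12 at 2 CPM or more in both. Their leading gene, Mir206, a skeletal muscle microRNA gene, had 61540 CPM in replicate 2 and 11810 CPM in replicate 1. Second was Mir486, which lies in the muscle-expressed gene Ank1, at 3417 CPM in replicate 2 and 4241 CPM in replicate 1. Other genes of the list were lower. Mir1a-2 averaged 132 CPM, Mir1a-1 and Mir133a-1 each 13.0 CPM, and Mir133a-2 3.07 CPM, and Mir133c had no count. Besides Mir206 and Mir486, only Mir499, at a mean of 295 CPM, averaged more than Mir122 (205 CPM) and Mir203 (176 CPM). Whether reads of the Mir1a and Mir133a genes were among the multimapping reads was not tested.

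The 10 genes together made up a small part of the profile. Their summed share was 0.0640% of assigned counts in replicate 2 (Wilson 95% interval 0.0608 to 0.0675) and 0.0268% in replicate 1 (0.0253 to 0.0284), or 454 ± 263 CPM (SD, n = 2). Mir378a, the most abundant gene of the libraries, alone averaged 172860 ± 18207 CPM. All 10 genes had at least 1 count in 1 of the libraries. At 2 CPM or more, 6 were found in replicate 2 and 8 in replicate 1, and 6 of 10 in both, against 324 of all 2202 microRNA genes (14.7%). The 6 were Mir122, Mir192, Mir375, Mir203, Mir205 and Mir200c.

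**Figure D1:**
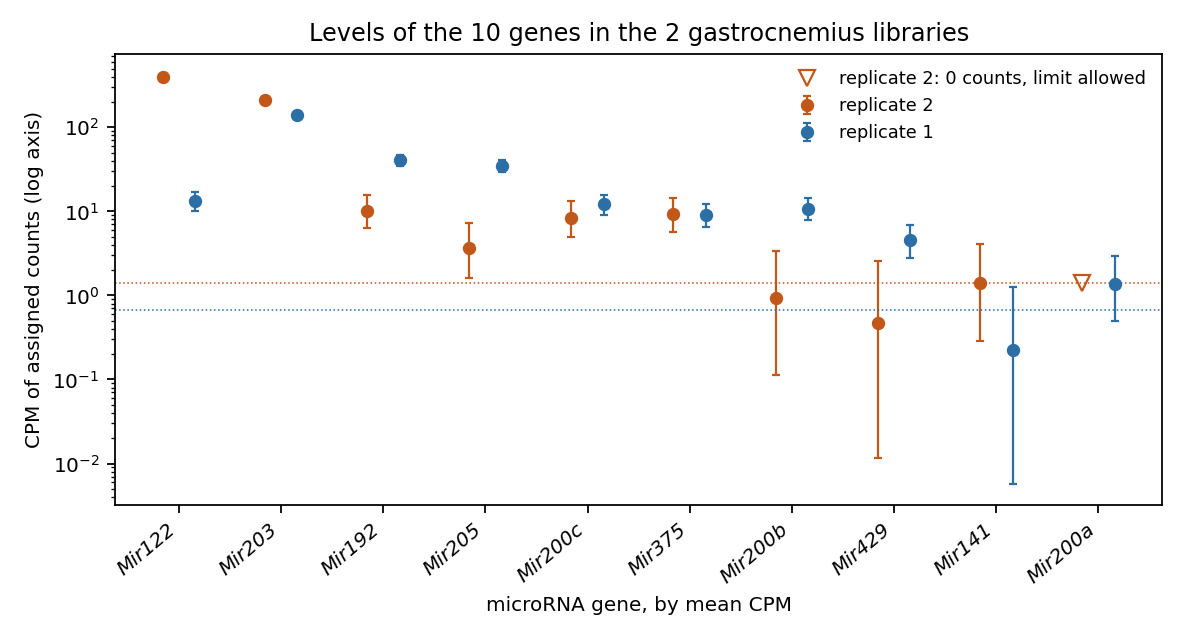
Level of each gene in CPM on a log axis, replicate 2 in orange on the left and replicate 1 in blue on the right, with exact Poisson 95% intervals; dotted lines mark the limit a count of 0 allows, 1.39 CPM in replicate 2 and 0.675 CPM in replicate 1. Mir203 is high in both libraries, Mir122 is high in replicate 2, and Mir141 and Mir200a are near the limits.

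Only the step between Mir203 and Mir192 in the order of mean levels separated the libraries' ranges. By mean CPM the order was Mir122, Mir203, Mir192, Mir205, Mir200c, Mir375, Mir200b, Mir429, Mir141 and Mir200a. In the other 8 steps the ranges of neighbouring genes over the 2 libraries overlapped. Overlap does not show equal levels, because both genes were measured in the same libraries. Mir192 was above Mir205, and Mir200b above Mir429, in both libraries. In the remaining steps the order held in only 1 of the libraries. Mir122 was above Mir203 in replicate 2 and below it in replicate 1, with counting intervals apart in each. The order was the same per kilobase of annotated gene, over which lengths run from 64 to 90 bases. Mir122 ranked 106th of the 2202 genes by mean level, between Mir101a at 210 ± 134 CPM and Mirlet7f-1 at 203 ± 76.1 CPM (SD, n = 2 each). Ranks within a library differed by gene. Mir203 ranked 101st in replicate 2 and 121st in replicate 1, Mir192 245th in replicate 2 and 173rd in replicate 1, and Mir205 300th in replicate 2 and 179th in replicate 1. Mir200c ranked 260th in replicate 2 and 235th in replicate 1, Mir375 252nd in both, and Mir200b 399th in replicate 2 and 242nd in replicate 1.

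Replicate 2 was compared with replicate 1 by an exact two-sided binomial test of each gene's counts, given library sizes scaled by edgeR's TMM method, with Benjamini-Hochberg adjustment over 380 genes with 10 or more summed counts. The test compares the reads of these 2 libraries and not conditions, and has no replicate check. Of the 10 genes 8 entered it, since Mir200a and Mir141 had too few counts. At an adjusted p of 0.05 or less, 2 of the 8 (Mir122 and Mir203) were higher in replicate 2, against a background of 30.3% of all genes tested. Another 4 (Mir192, Mir205, Mir200b and Mir429) were higher in replicate 1, against 31.6%, and Mir375 and Mir200c did not pass. In either direction 6 of 8 passed, against 61.8% of all genes tested. The median log2 ratio of the 8 was −1.11, against 0.02 over the 380. Unless stated otherwise, log2 ratios are of CPM + 1, while the intervals given with them leave out the added CPM.

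**Figure D2:**
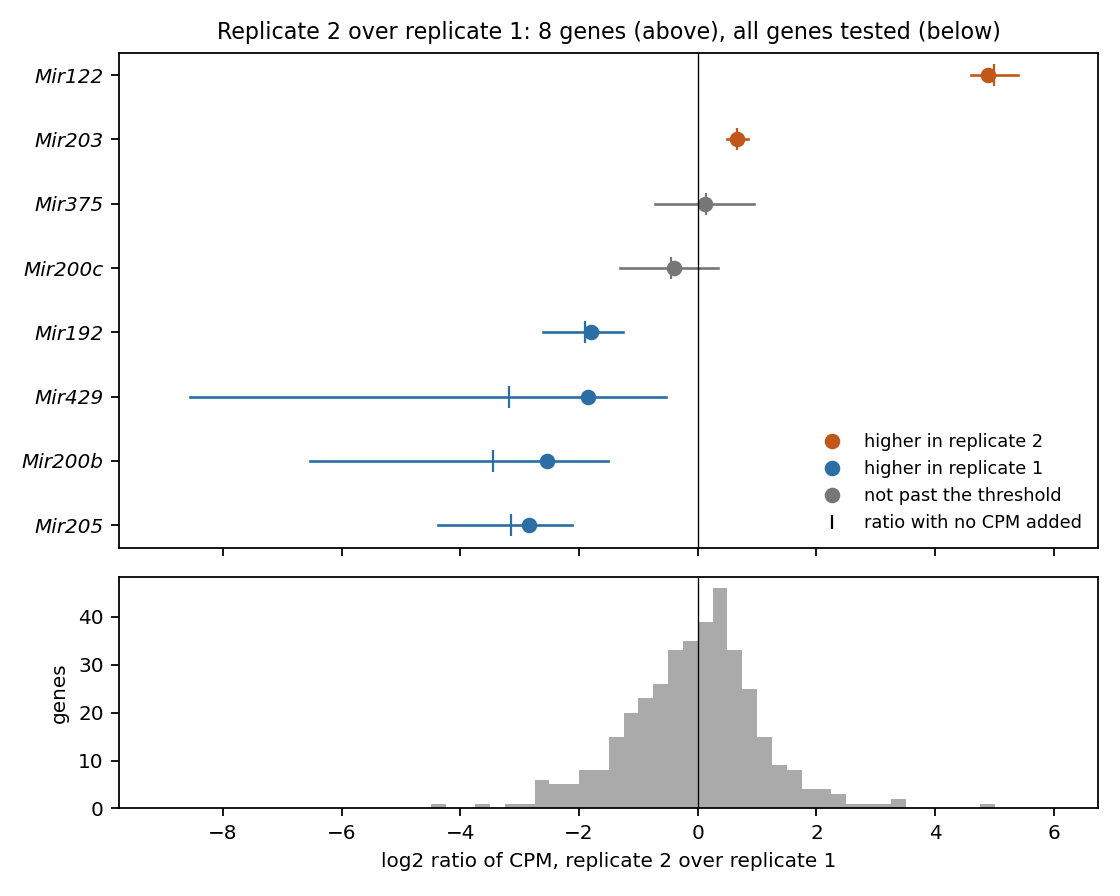
Log2 ratio of CPM + 1, replicate 2 over replicate 1, for the 8 genes tested, with exact 95% counting intervals that leave out the added CPM (upper panel), and the number of genes at each ratio among the 380 tested (lower panel). Mir122 lies at 4.89, at the far right end of all genes, and Mir205, Mir200b, Mir429 and Mir192 lie between −2.85 and −1.80.

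Mir122 was abundant in replicate 2 and low in replicate 1. It had 854 counts, or 396 CPM (exact Poisson 95% interval 370 to 424), in replicate 2 and 59 counts, or 13.3 CPM (10.1 to 17.1), in replicate 1. Its rank was 79th in replicate 2 and 232nd in replicate 1. The log2 ratio was 4.89 (95% counting interval 4.61 to 5.40), or 29.6-fold higher in replicate 2 on the scale of CPM + 1, and none of the other 379 genes tested had a higher one. Among genes with 100 or more counts, those nearest to it in log2 ratio were Mir26a-1 at 3.50, Mir770 at 3.47 and Mir499, a muscle gene within Myh7b, at 2.95. The measure of likeness is this ratio over 2 libraries, so it carries no more than the direction and size of a single difference.

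Mir192, the other liver-linked gene, went the opposite way. It had 22 counts, or 10.2 CPM (6.39 to 15.4), in replicate 2 and 180 counts, or 40.5 CPM (34.8 to 46.9), in replicate 1. The log2 ratio was −1.80 (−2.61 to −1.25, adjusted p = 4.71e-11, exact binomial test). Its cluster neighbour Mir194-2, which is known from the same tissues, had 9.74 CPM in replicate 2 and 19.8 CPM in replicate 1, with a log2 ratio of −0.87 (adjusted p = 0.0129, exact binomial test). Mir192 and Mir194-2 thus were both lower in replicate 2, where Mir122 was higher. Mir194-1, a further copy of the Mir194 gene, had 0 counts in replicate 2 and 5 in replicate 1, and its neighbour Mir215, whose product shares the miR-192-5p seed, had no count in either library.

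Mir375, the islet microRNA gene, was low and close in level between the libraries. It had 20 counts, or 9.28 CPM (5.67 to 14.3), in replicate 2 and 40 counts, or 9.00 CPM (6.43 to 12.3), in replicate 1, a mean of 9.14 ± 0.192 CPM (SD, n = 2). The log2 ratio was 0.12 (−0.72 to 0.94, adjusted p = 0.848, exact binomial test), so at this depth differences within that interval were not excluded. The sign of this ratio changed to −0.0091 with no count filter.

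Mir203 and Mir205, which both mark stratified epithelia, moved apart. Mir203 had 453 counts, or 210 CPM (191 to 230), in replicate 2 and 628 counts, or 141 CPM (131 to 153), in replicate 1. Its log2 ratio was 0.66 (0.49 to 0.84, adjusted p = 6.58e-13, exact binomial test), and 81 of the other genes tested had a higher one. Mir205 had 8 counts, or 3.71 CPM (1.60 to 7.31), in replicate 2 and 155 counts, or 34.9 CPM (29.6 to 40.8), in replicate 1. Its log2 ratio was −2.85 (adjusted p = 4.30e-16, exact binomial test), and −3.14 with no CPM added (−4.38 to −2.13). On the scale of CPM + 1, 3 of the other genes tested had a lower ratio. Among genes with 100 or more counts, those nearest to Mir205 in log2 ratio were Mir195a at −3.002, Mir152 at −2.61 and Mir15a at −2.50. Of the members' counts, Mir203 held 32.8% in replicate 2 (Wilson 95% interval 30.4 to 35.3) and 52.7% in replicate 1 (49.9 to 55.6). Mir205 held 0.579% in replicate 2 (0.294 to 1.14) and 13.0% in replicate 1 (11.2 to 15.0). Both shares were higher in replicate 1, although Mir203 was lower there in CPM. Mir122 held 61.8% of the same counts in replicate 2 and 4.95% in replicate 1, so these shares do not follow the levels.

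The 5 genes of the mir-200 family summed to 24 counts, or 11.1 CPM (7.13 to 16.6), in replicate 2 and to 129 counts, or 29.0 CPM (24.2 to 34.5), in replicate 1. Mir200c was the highest member in both libraries, with 18 counts, or 8.35 CPM, in replicate 2 and 54 counts, or 12.2 CPM, in replicate 1. Its log2 ratio of −0.41 (−1.31 to 0.34) did not pass (adjusted p = 0.400, exact binomial test). Its cluster partner Mir141 had 3 counts in replicate 2 and 1 in replicate 1, at or under the limit of detection in each.

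The chromosome 4 cluster had 3 counts in replicate 2 and 74 in replicate 1. Mir200b had 2 counts, or 0.928 CPM (0.112 to 3.35), in replicate 2 and 48 counts, or 10.8 CPM (7.97 to 14.3), in replicate 1. Its log2 ratio was −2.55 (adjusted p = 1.03e-05, exact binomial test), and −3.45 with no CPM added (−6.54 to −1.52). Mir429 had 1 count in replicate 2 and 20 counts, or 4.50 CPM (2.75 to 6.95), in replicate 1, with a log2 ratio of −1.86 (adjusted p = 0.0142, exact binomial test), and −3.19 with no CPM added (−8.56 to −0.54). Mir200a had 0 counts in replicate 2 and 6, or 1.35 CPM, in replicate 1, so no difference was detectable at this depth. With 5 CPM added in place of 1 CPM the log2 ratios were −1.38 for Mir200b and −0.77 for Mir429. All 3 genes of the cluster were lower in replicate 2 by their counts, and 2 of them passed the test.

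The makeup of the family by cluster differed between the libraries, and its makeup by seed did so less clearly. The chromosome 4 cluster held 12.5% of the family's counts in replicate 2 (3 of 24, Wilson 95% interval 4.34 to 31.0) and 57.4% in replicate 1 (74 of 129, 48.7 to 65.6), and these intervals do not overlap. Genes with the seed AAUACUG held 87.5% in replicate 2 (69.0 to 95.7) and 94.6% in replicate 1 (89.2 to 97.3), with intervals that overlap. In CPM the Mir200c and Mir141 cluster was at 9.74 (6.03 to 14.9) in replicate 2 and 12.4 (9.33 to 16.1) in replicate 1. The chromosome 4 cluster was at 1.39 CPM (0.287 to 4.07) in replicate 2 and 16.7 CPM (13.1 to 20.9) in replicate 1.

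**Figure D3:**
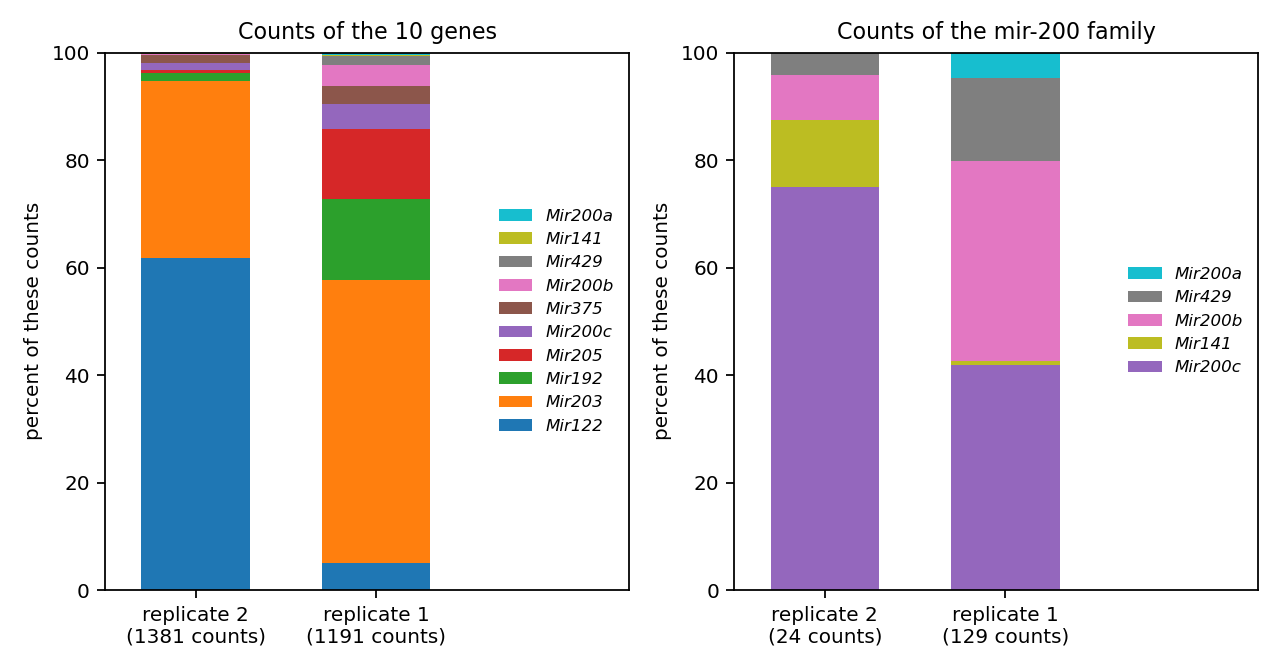
Percent of the members' counts held by each of the 10 genes (left panel) and percent of the mir-200 family's counts held by each of its 5 genes (right panel), replicate 2 left and replicate 1 right in each panel. Mir122 takes 61.8% of the members' counts in replicate 2 and 4.95% in replicate 1, and Mir200c takes 75.0% of the family's counts in replicate 2 and 41.9% in replicate 1.

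The 7 epithelial members summed to 225 CPM (205 to 246) in replicate 2 and 205 CPM (192 to 219) in replicate 1. These intervals overlap, while the makeup of the sum differed. Of their counts Mir203 held 93.4% in replicate 2 (Wilson 95% interval 90.8 to 95.3) and 68.9% in replicate 1 (65.8 to 71.8). The difference in the sum over all 10 members therefore lay mostly in Mir122, which held 61.8% of their counts in replicate 2 (59.2 to 64.4) and 4.95% in replicate 1 (3.86 to 6.34).

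Further genes, listed under related tissues, were spread over a wide range of levels. How specific each gene is to its listed tissues was not tested. Of 6 genes listed under liver, gut and kidney 3 were at 2 CPM or more in both libraries. Mir204 led at 128 CPM in replicate 2 and 213 CPM in replicate 1, followed by Mir194-2 at 9.74 CPM in replicate 2 and 19.8 CPM in replicate 1. Of 3 tested, these 2 were higher in replicate 1, against 31.6% of all genes tested, and Mir211 did not pass the threshold. Mir802, a liver and pancreas gene, had 1 count in replicate 2 and none in replicate 1. Of 8 pancreas and endocrine genes 2 were at 2 CPM or more in both, Mir7-1 (39.9 CPM in replicate 2 and 65.5 CPM in replicate 1) and Mir7b (11.1 CPM in replicate 2 and 3.38 CPM in replicate 1). The pancreatic genes Mir216a, Mir216b, Mir216c and Mir217 had at most 1 count in a library. Of 7 other epithelial and sensory genes 5 were at 2 CPM or more in both, led by Mir224 at 47.1 ± 10.2 CPM and Mir184 at 40.4 ± 4.64 CPM (SD, n = 2 each). Of 5 tested 3 were higher in replicate 2, against 30.3% of all genes tested, and the other 2 did not pass.

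**Figure D4:**
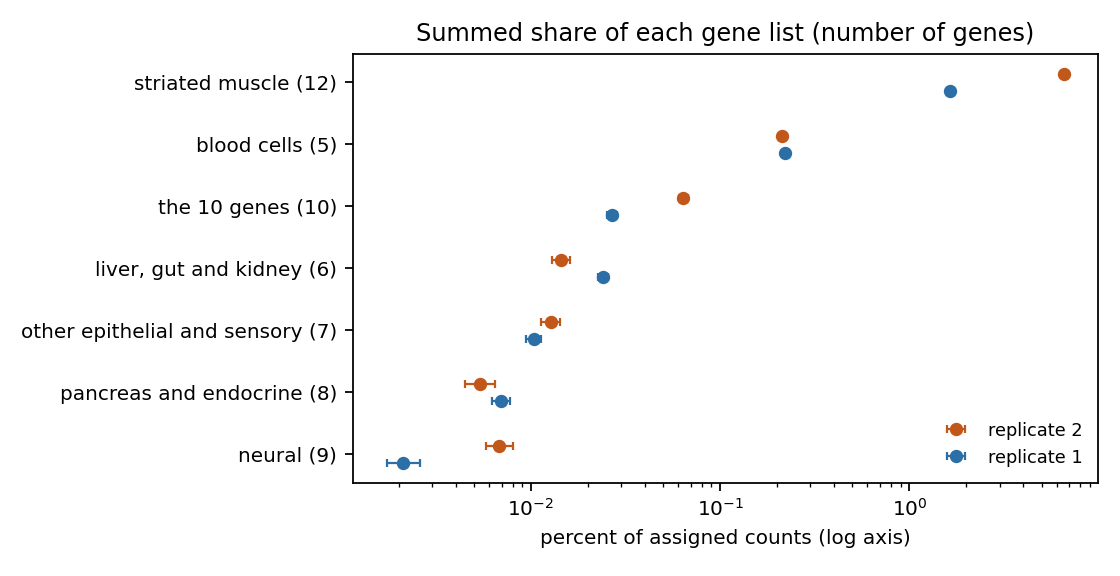
Share of assigned counts summed over each gene list, in percent on a log axis, with Wilson 95% intervals, replicate 2 in orange above replicate 1 in blue; numbers in brackets are genes found. The 10 genes, at 0.0640% in replicate 2 and 0.0268% in replicate 1, lie below the striated muscle and blood cell lists in both libraries.

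Blood cell markers, listed because the Mir122 product also circulates, were divided in direction. The 5 blood cell genes summed to 0.212% of counts in replicate 2 and 0.221% in replicate 1. Of these 5, 1 was higher in replicate 2 and 4 in replicate 1, against 30.3% and 31.6% of all genes tested. The most abundant, the lymphocyte gene Mir150, had 1767 CPM in replicate 2 and 1082 CPM in replicate 1, and the red cell gene Mir451a had 90.0 CPM in replicate 2 and 509 CPM in replicate 1. Over their whole range the 5 genes ran from 18.6 to 1767 CPM in replicate 2 and from 169 to 1082 CPM in replicate 1, and none was at 0. Of 9 neural genes 2 were at 2 CPM or more in both, Mir137 at 30.3 ± 24.1 CPM and Mir219a-2 at 10.7 ± 9.76 CPM (SD, n = 2 each), and all 3 Mir124a genes had no count. Of 10 striated muscle genes tested 4 were higher in replicate 2 and 4 in replicate 1, against 30.3% and 31.6% of all genes tested in the same directions. The part of blood, nerve or muscle content in the differences of the 10 genes was not tested.

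Reads on the strand opposite to the gene were absent from 8 of the 10 members in both libraries. Most other genes had none either. Over the microRNA genes compared, 9.58% of 313 in replicate 2 and 11.4% of 377 in replicate 1 had any antisense read. Summed over all genes, antisense reads still came to 26.8% of sense reads in replicate 2 and 29.1% in replicate 1. Nearly all of these lay at the 64 genes with another annotated microRNA gene on the opposite strand. Mir122 had 10 antisense reads in replicate 2 and 35 in replicate 1, which is 4.64 CPM in replicate 2 and 7.88 CPM in replicate 1. They made up 1.16% of the reads on both strands in replicate 2 (Wilson 95% interval 0.630 to 2.12) and 37.2% in replicate 1 (28.1 to 47.3). Of the genes compared, 26 in replicate 2 and 28 in replicate 1, Mir122 itself included, were at or above the value of Mir122 in this share. Among 2138 microRNA genes with no annotated microRNA gene on the opposite strand, Mir122 had the most antisense reads in each library, 22.7% of the 44 in replicate 2 and 31.0% of the 113 in replicate 1. Mir203 had 6 antisense reads in replicate 2, 1.31% of its reads (0.600 to 2.82), and none in replicate 1, and RefSeq lists miR-203b on that strand. With the strands added, Mir122 had 864 reads in replicate 2 and 94 in replicate 1, so its direction did not rest on the choice of strand.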

How the data were processed

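For each library the authors deposited a table of unnormalized read counts by microRNA gene, made on mm10 with GENCODE M21 according to the readmes. How reads were trimmed, aligned and counted is not given in the sources used here. To judge by the values, the 3 columns hold strand-free, sense and antisense counts. Sense counts gave the levels. Rows for unmapped, multimapping and unassigned reads stayed out of totals. Reads assigned to microRNA genes were 19.8% of the table in replicate 2 and 15.7% in replicate 1.

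CPM were computed over all 2202 genes and given as mean ± SD over 2 libraries. Log2 ratios used CPM + 1 after TMM scaling, which raised them by 0.0932 against plain totals. Their intervals are exact (Clopper-Pearson, 95%) and leave out the added CPM. The members and lists were chosen with earlier results of these data known. Named genes were all members, the 3 genes nearest in log2 ratio to the highest and the lowest member with 100 or more counts, the genes next to the most abundant member in level, and the 2 most abundant genes of each list. Other genes (cluster mates, family members, single marker genes) were named after their values were seen. Of the listed symbols, 3 were not found in the annotation. With 1 group, there was no contrast of conditions and no batch named in the labels. Tools were R 4.3.3, edgeR 4.0.16, DESeq2 1.42.0 (size factors only), Python 3.11.15, matplotlib 3.10.9, scipy 1.17.1, pandas 2.3.3 and numpy 2.4.6.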

Additional observations from a re-analysis of the deposited data

Results flagged for a closer look

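Antisense reads lie outside the counts used for levels, and at 2 of the 10 genes they exceeded the 3 counts that a count of 0 allows. Mir122 had 10 antisense reads in replicate 2 and 35 in replicate 1. Mir203 had 6 antisense reads in replicate 2. The cause was not tested.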

How the results depend on the processing

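Of the 10 genes 6 reached 2 CPM in both libraries, and 3 reached 10 CPM. With a single library it was 6 to 8, and the members' share of assigned counts was 0.0268% to 0.0640%. The 2 members higher in replicate 2 stayed at 2 under counts without strand, DESeq2 size factors, plain totals, no count filter, 50 or more counts, and replicate 1 thinned to an equal depth. The 4 higher in replicate 1 were 4 or 3, the 3 coming with 50 or more counts and with thinning, where Mir429 had too few counts to be tested. Of 46 log2 ratios recomputed for single genes with another column, scaling, filter or depth, 45 kept their direction and their side of the threshold. The exception was Mir375, at −0.0091 with no count filter, where the median of all genes was −0.16, against 0.02 as reported. Mir122 ranged from 4.27 to 4.98, Mir205 from −3.11 to −2.13, Mir200b from −3.32 to −1.38 and Mir429 from −2.94 to −0.77, the last 3 furthest from 0 with a pseudocount of 0.1 CPM and nearest with 5 CPM. The added CPM does not enter the test. Of 30 levels recomputed with another column, total or per kilobase, 5 moved by more than the spread of the 2 libraries, 3 of them of Mir375. Levels rest on which library is taken, with Mir122 at 396 CPM in replicate 2 and 13.3 CPM in replicate 1. No paired analysis was possible because there was a single group. Depth limits Mir205, Mir375, Mir192 and the mir-200 genes, each with 22 counts or fewer in replicate 2.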
